A study of Mus musculus with 18 samples.

Results

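Mouse dendritic cells (DCs) that migrated in the densest collagen gel of the study, 4.4 mg/ml, were compared with DCs in its loosest gel, 1.7 mg/ml. The 6 libraries were selected by their titles, 3 per gel, out of 18 libraries in all, and the biological replicate number was kept as a block. DCs were grown from bone marrow of wild-type C57Bl6/J mice, 8 to 12 weeks old, stimulated from differentiation day 8 with lipopolysaccharide (LPS) at 200 ng/ml for 24 hours, cast into gels of bovine collagen, and lysed for RNA 5 hours after a gradient of the chemokine CCL19 had been applied. Both gels thus share the LPS stimulus, the chemokine, and the matrix protein, and differ by label only in the collagen concentration. The other 12 libraries, from gels of 2.6 and 3.5 mg/ml and from 2 suspension groups, served to estimate the spread and to place the results along the series. The cells are a culture of mature DCs from a growth factor–driven bone marrow culture, not DCs taken from tissue.

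DCs carry antigen from peripheral tissue to lymph nodes and are guided there by CCL19, which they sense through the receptor Ccr7. They crawl in an amoeboid way, squeezing the nucleus and the cell body through pores without needing strong adhesion, so that a denser network of fibers means smaller pores. The study is about how the centrosome, the organelle from which DC microtubules grow, withstands the forces of such migration. It names the kinase Dyrk3 and the centriolar linker protein C-NAP1, encoded by Cep250, as protectors of the centrosome.

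Total counts were 15706007, 14832358, and 18879083 in replicates 1, 2, and 3 at 1.7 mg/ml and 23906193, 13878626, and 23087334 at 4.4 mg/ml, and a count of 3 corresponded to 0.125 to 0.216 CPM (counts scaled to library size) in these libraries. Same-numbered libraries share a date and a sequencing lane, so a replicate is also a batch that holds both gels once. The methods describe male mice, yet Xist was at 380 and 2098 counts in replicates 1 and 2 of the loose gel and at 2859 and 1998 counts in those of the dense gel, with 0 counts of Y-linked genes, whereas both libraries of replicate 3 had 0 counts of Xist and 1534 and 1203 counts of Y-linked genes. The sex of the mice therefore went with the replicate, and the block takes up that difference between replicates. It does not take up differences within a replicate. In replicate 1, Xist was at 29.3 CPM in the loose gel and 129 CPM in the dense gel, and the cause was not tested. Markers of mature DCs were high, since the MHC class II invariant chain Cd74 was at 13931 to 31816 CPM and the chemokine receptor Ccr7 at 3462 to 5244 CPM in the 6 libraries.

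In total, 239 of the 13844 genes tested differed between 4.4 and 1.7 mg/ml at a false discovery rate (FDR) of 0.1, which is 1.73% of the genes. Of these, 155 (1.12% of the genes tested) were higher in the dense gel and 84 (0.607%) were lower. These shares stand beside the counts of called members in the gene lists below. Where few members of a list were called, they are described singly and nothing is read from the count. The higher genes included immediate early genes such as Egr1 and Nr4a2, interferon-stimulated genes such as Mx2 and Cxcl10, chaperones such as Hspa5 and Hspa1a, and the choline kinase Chka. The lower genes included the endosomal DNA receptor Tlr9, the MHC class II transactivator Ciita, and the centrosomal protein Akna. The median log2 fold change was 1.71 among the higher genes (quartiles 1.31 and 2.19) and -1.24 among the lower genes (quartiles -1.61 and -1.05), against 0.02 over all genes tested, of which 51.3% had a positive value. In a bulk library, fewer cells that express a gene and less of its RNA per cell cannot be told apart.

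**Figure D1:**
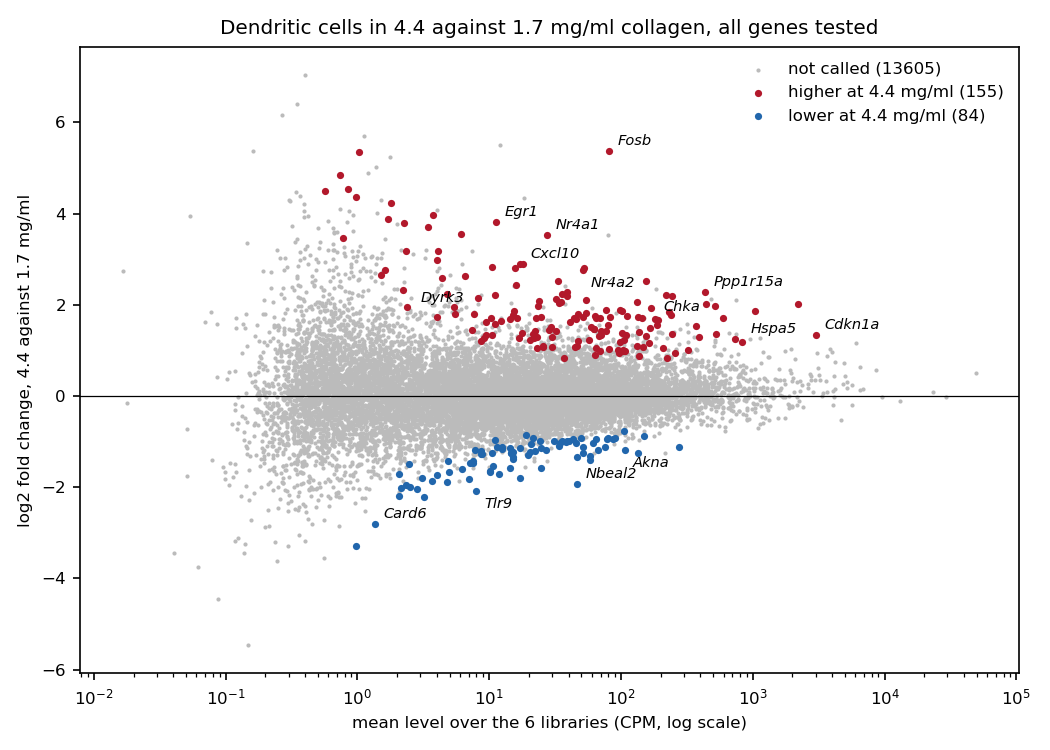
Log2 fold change between 4.4 and 1.7 mg/ml (vertical axis) against the mean level over the 6 libraries in CPM (horizontal log axis), 1 point per gene tested. Red points are the 155 genes called higher and blue points the 84 genes called lower at an FDR of 0.1, and the other genes tested are gray; the fold changes of higher genes reach 5.36 for Fosb.

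The calls rested on the pairing of libraries and on the individual libraries. Without the replicate block, edgeR called 1 gene, from the log2 fold change of Chka (adjusted p = 0.0202), with 1061 genes at an unadjusted p under 0.05, against 2000 with the block. Leaving out a single library at 1.7 mg/ml left 4, 1, and 0 calls for replicates 1, 2, and 3, and leaving out 1 at 4.4 mg/ml left 331, 45, and 318. All 239 genes had the same sign as in the full fit in each of these 6 fits. They were chosen from the same libraries, so no support is drawn from the signs. Leaving out replicates 1, 2, and 3 as pairs left 15, 0, and 179 calls. Of the 179 genes called from replicates 1 and 2 alone, 116 of 139 higher genes and 35 of 40 lower genes had the same sign in replicate 3, which had no part in that fit. Over all genes tested, 57.5% had the same sign in this replicate as in the fit without it. Of the genes called without replicate 1, 11 of 13 higher and 2 of 2 lower genes had the same sign in replicate 1, against 51.4% of all genes. Without replicate 2 no gene was called, so none could be read there. Genes are not replicates, so these counts are given as a description.

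The largest difference between the gels was seen in replicate 2. In the library names, this replicate carries another flow cell identifier than replicates 1 and 3. The part of the flow cell in this difference was not tested. In replicate 2, the SD over all genes of the log2 difference between the gels was 1.23, against 0.816 in replicate 1 and 0.839 in replicate 3. The genes called higher had a median log2 difference of 1.36, 1.95, and 1.27 in replicates 1, 2, and 3, and the genes called lower had -1.09, -1.59, and -1.04. Of the 155 higher genes, 87 had all 3 dense-gel libraries above all 3 loose-gel libraries, and 68 of the 84 lower genes had them all below. Over all genes tested this held for 4.53% in the upward and 6.21% in the downward direction. These genes were called from the same values, so no support is drawn from these counts.

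Chka encodes choline kinase alpha, which phosphorylates choline in the first step of phosphatidylcholine synthesis, and had the lowest p-value of all genes. It was at 85.3, 99.2, and 76.2 CPM in replicates 1, 2, and 3 at 1.7 mg/ml and at 264, 320, and 251 CPM at 4.4 mg/ml. The groups stood far apart, and the log2 differences within the replicates were nearly equal at 1.63, 1.69, and 1.72. The mean rose from 86.9 ± 11.6 to 278 ± 36.4 CPM (SD, n = 3 each), a log2 fold change of 1.68 (SE 0.21, adjusted p = 0.00367). The gene lies at chr19:3851773-3894369 on the plus strand (GRCm38). Its call was lost without replicate 3 at 1.7 mg/ml (adjusted p = 0.115) and without the pair of replicate 2 (adjusted p = 0.356).

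Apart from Chka, no gene of choline and phosphatidylcholine synthesis was called higher. Of 13 measured, Chka among them, 11 were not called and 1 fell. The list had 10 positive members and a median log2 fold change of 0.15, and smaller rises of uncalled members cannot be told from none. Among members chosen after their values were seen, the second choline kinase, Chkb, had a log2 fold change of 0.49 (adjusted p = 0.69), and Pcyt1a, which forms CDP-choline in the rate-limiting step of the pathway, had 0.15 (adjusted p = 0.90). The member that fell was Lpcat1, an acyltransferase that remakes phosphatidylcholine from its lyso form. It was at 20.7, 35.8, and 28.2 CPM in the loose gel and at 10.5, 14.7, and 15.0 CPM in the dense gel. The groups did not overlap, and the log2 fold change was -1.06 (SE 0.28, adjusted p = 0.087).

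Dyrk3, the dual-specificity kinase that dissolves membraneless condensates and that the study places at the centrosome, was a gene of low level. It was at 5.47, 3.91, and 1.47 CPM in replicates 1, 2, and 3 at 1.7 mg/ml and at 12.9, 13.9, and 8.64 CPM at 4.4 mg/ml. All dense-gel libraries were above all loose-gel libraries, with replicate 3 the lowest in both gels. The mean rose from 3.62 ± 2.02 to 11.8 ± 2.81 CPM (SD, n = 3 each), a log2 fold change of 1.80 (SE 0.38, adjusted p = 0.0387). Dyrk3 lies at chr1:131127455-131138340 on the minus strand (GRCm38). Its call was lost without the block (adjusted p = 0.377) and in each fit without 1 of the loose-gel libraries (adjusted p = 0.117 to 0.224), as well as without the dense-gel library of replicate 2 (adjusted p = 0.117) and without any of the 3 pairs (0.106 to 0.385). Of the 11 measured DYRK, CLK, and HIPK kinases, Dyrk3 was the 1 called, against 1.73% of all genes tested, and nothing is read from this count. Of 2 others, chosen after their values were seen, Dyrk1a was at 0.63 (adjusted p = 0.31) and Clk2, a kinase of SR splicing factors, at -1.15 (adjusted p = 0.12) on the log2 fold change scale.

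Among the 35 measured members of the centrosome and centriole list, 1 was called, which fell. Since 1.73% of all genes tested were called, nothing is read from this count. The list is not complete. Plk2, a kinase that acts in centriole duplication, is not on it and was called higher (log2 fold change 1.75, adjusted p = 0.0315). It is described with the p53 targets below. Akna, which organizes microtubules at the centrosome, was at 121, 164, and 158 CPM in the loose gel and at 60.1, 54.6, and 80.7 CPM in the dense gel. The groups did not overlap and the gene fell in 3 of 3 replicates, with a log2 fold change of -1.18 (SE 0.30, adjusted p = 0.0777). The call was lost without the block (adjusted p = 0.376) and without any single library except the dense-gel one of replicate 3 (adjusted p = 0.112 to 0.311). The list had 11 positive members and a median of -0.20. The following uncalled members were chosen after their values were seen. Cep250, which encodes the centriolar linker protein C-NAP1, had a log2 fold change of -0.83 (adjusted p = 0.17), and the pericentriolar scaffold Pcnt had -0.53 (adjusted p = 0.50). Stil and Plk4, which build new centrioles, had 1.55 (adjusted p = 0.12) and 1.52 (adjusted p = 0.16). The replicates went different ways, since the median log2 difference of the list was 0.39 in replicate 1, -0.68 in replicate 2, and -0.47 in replicate 3.

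**Figure D2:**
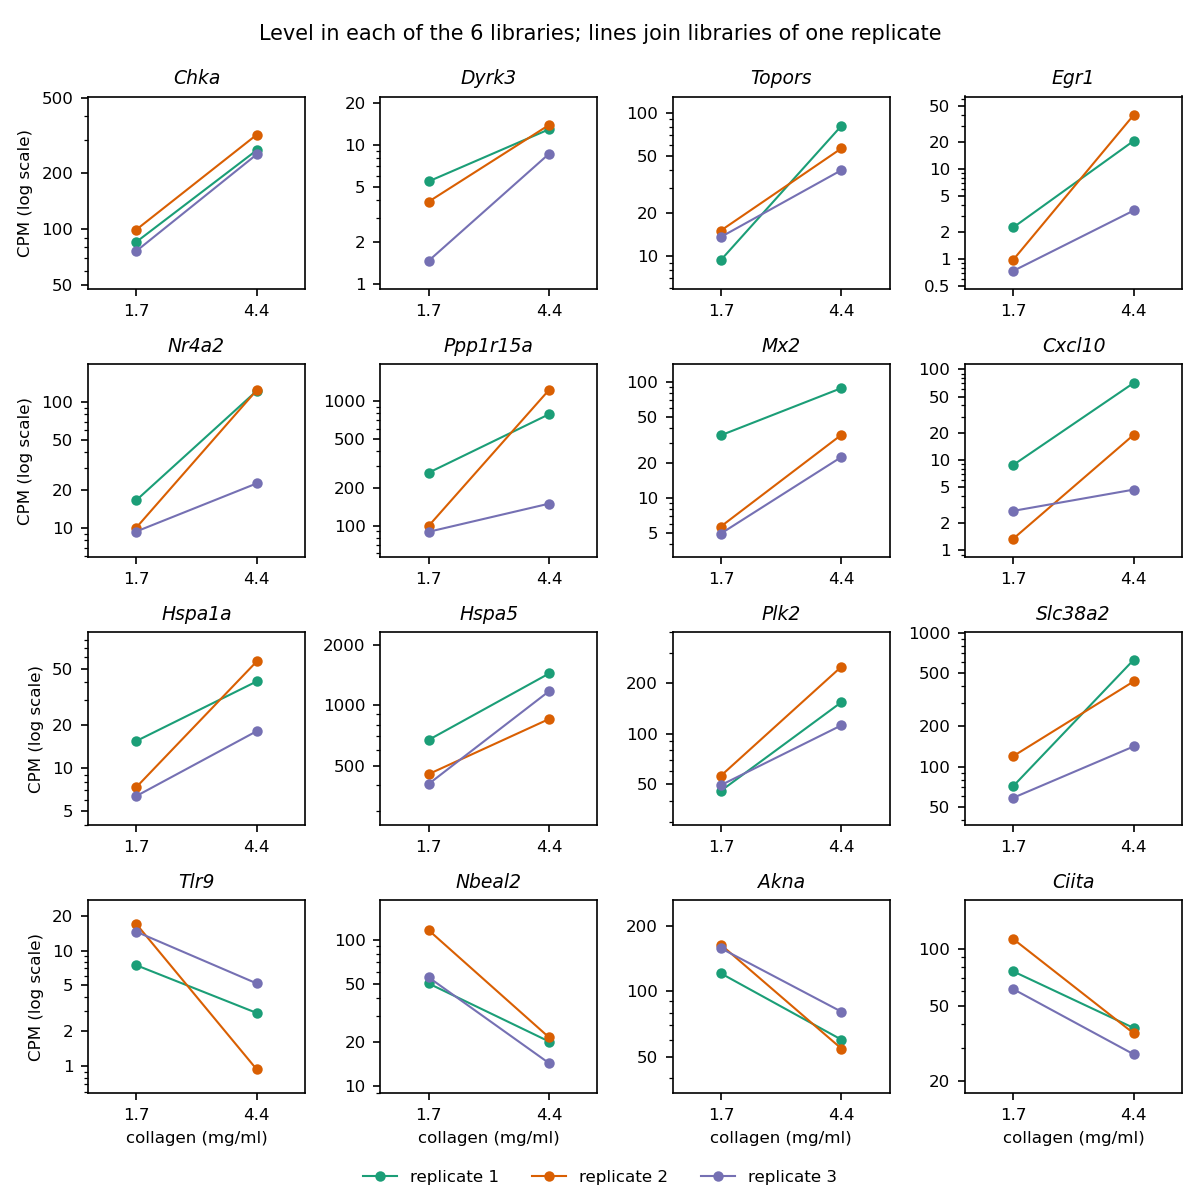
Level of 16 named genes in each of the 6 libraries in CPM (vertical log axis, its range set for each gene) at 1.7 and 4.4 mg/ml (horizontal axis), with lines joining the libraries of 1 replicate. The lines of Chka are nearly parallel, while Egr1, Nr4a2, and Ppp1r15a rise least in replicate 3.

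Immediate early genes are transcribed within minutes of a stimulus without new protein synthesis, and many encode transcription factors. Of 17 measured EGR, NR4A, and other immediate early genes, 8 were higher in the dense gel, 0 were lower, and the median log2 fold change was 1.15. Egr1, a zinc finger factor, was at 2.23, 0.978, and 0.736 CPM in the loose gel and at 20.4, 39.6, and 3.45 CPM in the dense gel. The groups did not overlap, but the dense-gel library of replicate 3 was far below the other two. Its log2 fold change was 3.81 (SE 0.61, adjusted p = 0.0241). The nuclear receptor Nr4a2 behaved alike, at 16.6, 10.1, and 9.40 CPM against 123, 125, and 22.7 CPM, with a log2 fold change of 2.77 (SE 0.51, adjusted p = 0.0293). Klf4, a zinc finger factor of myeloid cells, was at 14.2, 7.51, and 4.62 CPM against 109, 42.9, and 21 CPM, a log2 fold change of 2.53 (SE 0.52, adjusted p = 0.0357). Nr4a1 rose as well (log2 fold change 3.52, SE 0.81, adjusted p = 0.0543), but its level in the dense gel in replicate 3, 2.7 CPM, was below that in the loose gel in replicate 1, 8.40 CPM.

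AP-1 is a dimer of FOS and JUN proteins, and small MAF proteins are related factors without an activation domain. Of the 14 measured genes of this kind, 4 rose and 0 fell, with a median of 0.76. Fosb had the largest rise of all genes named by the rule. It was at 14, 1.28, and 0.893 CPM in the loose gel and at 148, 321, and 5.25 CPM in the dense gel. The groups overlapped because replicate 1 was high in both gels, while each replicate rose, by 3.39, 7.85, and 2.42 on the log2 scale. The fitted log2 fold change was 5.36 (SE 1.06, adjusted p = 0.0315). Mafk rose from 29.6, 18.6, and 12.0 CPM to 86.0, 68.0, and 32.0 CPM without overlap (log2 fold change 1.63, SE 0.26, adjusted p = 0.0241). Jun and Maff had log2 fold changes of 0.99 and 1.75 (adjusted p = 0.0543 and 0.0911). Without the dense-gel library of replicate 2, 1 of the 17 immediate early genes and 2 of the 14 AP-1 genes were called, out of 45 calls in all. Fits without the loose-gel library of replicate 1, 2, or 3 had fewer calls in all, 4, 1, and 0.

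Genes of 2 lists of feedback inhibitors were called in small number. Among 11 MAP kinase phosphatases, Dusp1 (log2 fold change 0.94, SE 0.24, adjusted p = 0.0796) and Dusp2 (1.62, SE 0.41, adjusted p = 0.0796) were higher, and the list median was 0.79, with medians of 0.74, 1.33, and -0.07 within replicates 1, 2, and 3. Among 20 SOCS and RGS genes, 2 rose, 8 had a negative log2 fold change, and the median was 0.14. Rgs2 rose from 46.1, 29.4, and 38.8 CPM to 163, 71.4, and 72.3 CPM (log2 fold change 1.35, SE 0.26, adjusted p = 0.0305), and Rgs16 had a log2 fold change of 3.89 (SE 1.05, adjusted p = 0.0946) at levels of at most 6.32 CPM. RGS proteins shorten the signal of G protein–coupled receptors, to which chemokine receptors belong.

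The promoters of 4 of the named genes that rose held a full cyclic AMP response element, the palindrome TGACGTCA that CREB and ATF factors bind. They are printed because genes of different kinds share these letters near their starts. These genes encode a ubiquitin and SUMO ligase (Topors), a polo-like kinase (Plk2), a phosphatase subunit (Ppp1r15a), and a MAP kinase phosphatase (Dusp1). The sequences are from RefSeq (GRCm38.p6), 5′ to 3′ on the strand of the gene, with the element in capitals. They cover chr4:40269866-40269913 for Topors (minus strand), chr13:110394962-110395009 for Plk2 (plus strand), chr7:45526253-45526300 for Ppp1r15a (minus strand), and chr17:26508588-26508635 for Dusp1 (minus strand).
Topors: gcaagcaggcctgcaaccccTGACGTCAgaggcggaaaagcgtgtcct
Plk2: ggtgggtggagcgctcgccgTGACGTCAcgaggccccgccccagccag
Ppp1r15a: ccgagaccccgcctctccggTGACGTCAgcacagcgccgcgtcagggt
Dusp1: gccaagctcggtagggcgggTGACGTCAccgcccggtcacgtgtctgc
The element starts 52, 62, 12, and 143 bases before the annotated start of transcription in Topors, Plk2, Ppp1r15a, and Dusp1. The Dusp1 stretch also holds an E-box, CACGTG, shown in lower case, that does not overlap the element. In windows from 250 bases before to 50 bases after the start, 9 of 118 genes that rose held the element on either strand (7.63%), as did 2 of 67 genes that fell (2.99%) and 324 of 10001 genes tested (3.24%). These shares are descriptions of letters in 1 window per gene, with no test.

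Interferon-stimulated genes encode proteins that block viruses and are switched on by the factor complex that interferons activate. Of 33 measured, 10 were higher in the dense gel, 0 were lower, and 32 had a positive log2 fold change, with a median of 1.01. The loose-gel library of replicate 1 was high for these genes. Mx2, a GTPase that restricts viruses, was at 34.7, 5.68, and 4.94 CPM in the loose gel and at 88.6, 35.1, and 22.6 CPM in the dense gel. The groups overlapped because of this library, and each replicate rose, with a log2 fold change of 2.12 (SE 0.35, adjusted p = 0.0241). Cmpk2, a mitochondrial nucleotide kinase, showed the same pattern, at 19.3, 3.85, and 5.20 CPM against 93.2, 17.8, and 8.74 CPM (log2 fold change 1.74, SE 0.33, adjusted p = 0.0305). Ifi47, a GTPase induced by interferon gamma, was at 17.3, 16.7, and 16.3 CPM against 34.8, 31.1, and 77.9 CPM, here with replicate 3 the highest (log2 fold change 1.44, SE 0.29, adjusted p = 0.0342). The summed level of the 33 genes was 14275, 3399, and 5138 CPM in the loose gel and 14445, 13000, and 8062 CPM in the dense gel, so that it hardly differed in replicate 1. Without the dense-gel library of replicate 2, 3 of the 33 genes were called, out of 45 calls in all.

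Cxcl10, an interferon-induced chemokine that attracts T cells, and Ifi44 carry the core of an interferon-stimulated response element, GAAANNGAA, in their promoters. Both are shown because they are the named interferon-stimulated genes with a match in the window searched. The sequences are from RefSeq (GRCm38.p6) at chr5:92349074-92349122 (Cxcl10) and chr3:151749885-151749933 (Ifi44), both on the minus strand, 5′ to 3′ on the strand of the gene, with the core in capitals, which in Ifi44 reads on the opposite strand.
Cxcl10: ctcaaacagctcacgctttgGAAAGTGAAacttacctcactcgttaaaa
Ifi44: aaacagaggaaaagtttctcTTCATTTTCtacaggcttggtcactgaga
The core was found in 14 of 118 genes that rose (11.9%), 6 of 67 that fell (8.96%), and 756 of all 10001 (7.56%). Cxcl10 was at 8.78, 1.34, and 2.73 CPM in the loose gel and at 70.9, 18.9, and 4.70 CPM in the dense gel. The dense-gel value of replicate 3 lay within the loose-gel range, and the log2 fold change was 2.89 (SE 0.59, adjusted p = 0.0351). Ifi44 rose from 12.9, 4.28, and 5.57 CPM to 41.2, 11.8, and 21 CPM (log2 fold change 1.70, SE 0.32, adjusted p = 0.0305).

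**Figure D3:**
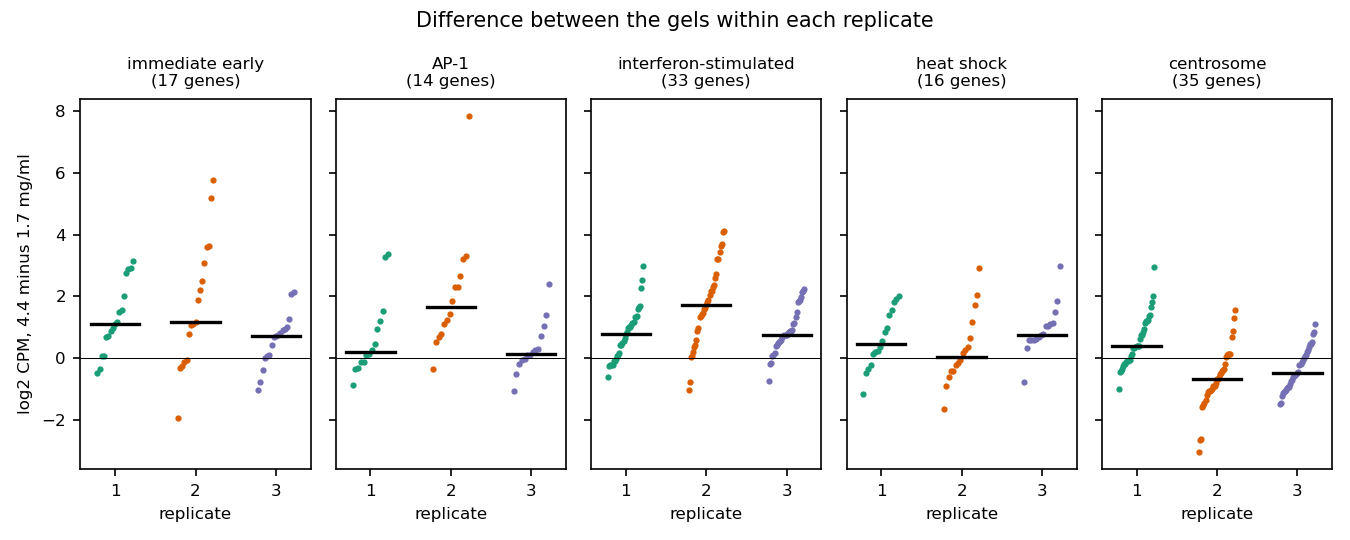
Difference in log2 CPM between 4.4 and 1.7 mg/ml (vertical axis) within each replicate (horizontal axis) for the members of 5 gene lists, 1 point per gene and a bar at the median. Interferon-stimulated genes have medians of 0.78, 1.72, and 0.76 in replicates 1, 2, and 3, and AP-1 genes differ most in replicate 2.

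A few genes of cytokines and chemokines were called higher. Of 37 measured cytokines and receptors, 2 rose, against 1.12% called higher of all genes tested, and the list median was 0.48. The list medians within replicates 1, 2, and 3 were 0.34, 0.93, and 0.17, so the shift was largest in replicate 2. Hbegf, a ligand of the EGF receptor, was at 7.24, 1.41, and 2.73 CPM against 34.3, 43.1, and 5.84 CPM (log2 fold change 2.80, SE 0.55, adjusted p = 0.0315). Tnf was at 12.0, 9.84, and 15.1 CPM against 60.5, 99.6, and 14.8 CPM. It was thus high in 2 dense-gel libraries and level with the loose gel in replicate 3, and it had a log2 fold change of 2.06 (SE 0.45, adjusted p = 0.044). Of 22 chemokine ligands, Cxcl10 and the inflammatory chemokine Ccl3 rose (Ccl3 log2 fold change 1.71, SE 0.38, adjusted p = 0.0452). The medians of the chemokine ligand list within replicates 1, 2, and 3 were 0.17, 1.36, and 0.09. Cxcl10 is also among the interferon-stimulated genes described above. Map3k8, the kinase that links LPS sensing to ERK, was the 1 member called of 21 genes of the NF-kB list, at 20.3, 21.2, and 20.6 CPM against 79.8, 83.8, and 39.6 CPM (log2 fold change 1.71, SE 0.41, adjusted p = 0.0627). Plau, the urokinase protease, was the 1 member called of 27 matrix receptors, proteases, and inhibitors (log2 fold change 1.71, SE 0.45, adjusted p = 0.0881).

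Chaperones of the cytosol and of the endoplasmic reticulum (ER) bind unfolded proteins. Of 16 cytosolic heat shock genes, 4 rose, and the list median was 0.36. Dnajb4, a cochaperone of HSP70, was at 22.3, 23.6, and 17.9 CPM in the loose gel and at 90.7, 53.6, and 65.4 CPM in the dense gel. The groups did not overlap, and the log2 fold change was 1.69 (SE 0.30, adjusted p = 0.0266). Bag3, which couples HSP70 to autophagy and is known from cells under tension, had a log2 fold change of 1.33 (SE 0.27, adjusted p = 0.0335). The inducible HSP70 genes Hspa1a (2.09, SE 0.40, adjusted p = 0.0305) and Hspa1b (2.12, SE 0.49, adjusted p = 0.0543) rose as well. They are near-identical copies, and how reads that match both were counted is not given in the sources used here. Their promoters are shown because the stretch around the heat shock element core, GAANNTTC in capitals, has the same letters in both copies, at chr17:34972233-34972280 for Hspa1a and chr17:34959315-34959362 for Hspa1b (RefSeq, GRCm38.p6, both on the minus strand and printed on the strand of the gene).
Hspa1a: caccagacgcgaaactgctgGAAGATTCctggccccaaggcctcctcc
Hspa1b: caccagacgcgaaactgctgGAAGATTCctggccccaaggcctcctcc
The core starts 104 bases before the start of transcription in both. It was found in 7 of 118 genes that rose (5.93%), 2 of 67 that fell (2.99%), and 560 of all 10001 (5.60%).

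In the ER, Hspa5 (BiP), the main luminal chaperone, was the 1 gene called of 20. It was at 672, 455, and 406 CPM in the loose gel and at 1437, 854, and 1174 CPM in the dense gel. The groups did not overlap, and the log2 fold change was 1.19 (SE 0.23, adjusted p = 0.0305). The list as a whole had 10 positive members and a median of 0.08. Of 23 genes of the integrated stress response, in which phosphorylation of the initiation factor eIF2 lowers translation, 2 were called. Atf4, its main transcription factor, was at 810, 355, and 262 CPM against 1042, 1205, and 716 CPM (log2 fold change 1.26, SE 0.28, adjusted p = 0.0474). Ppp1r15a (GADD34), the phosphatase subunit that ends the response, was at 266, 99.3, and 89.3 CPM against 785, 1232, and 150 CPM (log2 fold change 2.28, SE 0.47, adjusted p = 0.0342). For both, replicate 1 was the highest loose-gel library and lay above or near the lowest dense-gel one. Ppp1r15a also belongs to the immediate early list and is counted there too. The median of the integrated stress response list was 0.14, so Atf4 and Ppp1r15a moved apart from most of that list.

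Of 22 p53 targets, 4 rose and 0 fell. Plk2, a kinase of the polo family that acts in centriole duplication, was at 45.7, 56.1, and 49.4 CPM in the loose gel and at 154, 250, and 112 CPM in the dense gel. These values did not overlap, and the log2 fold change was 1.75 (SE 0.35, adjusted p = 0.0315). Mdm2, the ubiquitin ligase of p53, rose from 104, 91.3, and 68.0 CPM to 440, 289, and 155 CPM (log2 fold change 1.66, SE 0.39, adjusted p = 0.0598). Cdkn1a, the cell cycle inhibitor p21, was abundant and rose by 1.34 (SE 0.31, adjusted p = 0.058) on the log2 scale, and Plk3 by 1.71 (SE 0.41, adjusted p = 0.0619). The list median was 0.26, with 14 positive members. Without the dense-gel library of replicate 2, 0 of the 22 were called by edgeR, out of 45 calls in all. Cell cycle genes had 0 of 33 called and a median of -0.04.

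Among 19 targets of the antioxidant factor NRF2, Osgin1 (log2 fold change 1.73, SE 0.36, adjusted p = 0.0369) and heme oxygenase Hmox1 (2.03, SE 0.52, adjusted p = 0.0796) rose. Hmox1 was at 4092, 466, and 194 CPM in the loose gel and at 4038, 3855, and 686 CPM in the dense gel, so that it did not differ in replicate 1. Of 21 amino acid carriers, Slc38a2, a glutamine and alanine transporter, rose from 71.6, 120, and 58.6 CPM to 628, 433, and 142 CPM (log2 fold change 2.19, SE 0.47, adjusted p = 0.0412), and Slc7a8 had 1.70 (SE 0.43, adjusted p = 0.076).

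Lists of RNA-binding proteins and histones had few members called. Of 27 SR splicing factors and speckle proteins, 21 had a positive log2 fold change, the median was 0.59, and 2 were called. The RNA helicase Ddx5 was at 159, 259, and 269 CPM in the loose gel and at 592, 488, and 566 CPM in the dense gel (log2 fold change 1.3, SE 0.27, adjusted p = 0.0369). The groups did not overlap. Ddx3x, a helicase of translation and of stress granules, was the 1 gene called of 18 stress granule proteins (list median 0.15), at 89.9, 141, and 90.7 CPM against 389, 464, and 255 CPM (log2 fold change 1.78, SE 0.37, adjusted p = 0.0357). Proteins of stress granules and speckles are known to form the condensates that Dyrk3 dissolves. Of 12 histone genes, 1 was called, 7 had a negative log2 fold change, and the median was -0.03. The called member, H3f3b, had a log2 fold change of 0.83 (SE 0.21, adjusted p = 0.0804), which is uncertain because it has near-identical copies.

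Several of the genes with the lowest p-values belong to none of these lists. Topors was at 9.40, 15.1, and 13.6 CPM in the loose gel and at 81.0, 56.4, and 39.8 CPM in the dense gel (log2 fold change 2.24, SE 0.38, adjusted p = 0.0241). Spty2d1, a histone chaperone, was at 43.0, 45.5, and 33.6 CPM against 210, 161, and 97.2 CPM (log2 fold change 1.88, SE 0.32, adjusted p = 0.0241). Tor1aip2, which encodes the ER protein LULL1 that activates torsin ATPases at the ER and nuclear envelope, was at 158, 136, and 119 CPM against 383, 362, and 307 CPM (log2 fold change 1.35, SE 0.23, adjusted p = 0.0241). All 3 had groups far apart, and the within-replicate differences of Tor1aip2 were 1.27, 1.41, and 1.36 on the log2 scale. Rasgef1b, a Ras and Rap exchange factor that LPS induces, was at 7.32, 2.69, and 2.21 CPM against 36.4, 46.1, and 7.99 CPM (log2 fold change 2.90, SE 0.45, adjusted p = 0.0241). Larger rises were seen in genes of low level, such as Apol8 (log2 fold change 4.24), Olfml3 (3.97), Slc23a3 (3.79), Ifitm10 (3.56), Trim69 (3.19), and Tbx10 (3.19), with adjusted p-values from 0.0387 to 0.0874. Some of these genes had few counts in the loose gel, so their fitted values depend on the prior count and are no bounds.

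**Figure D4:**
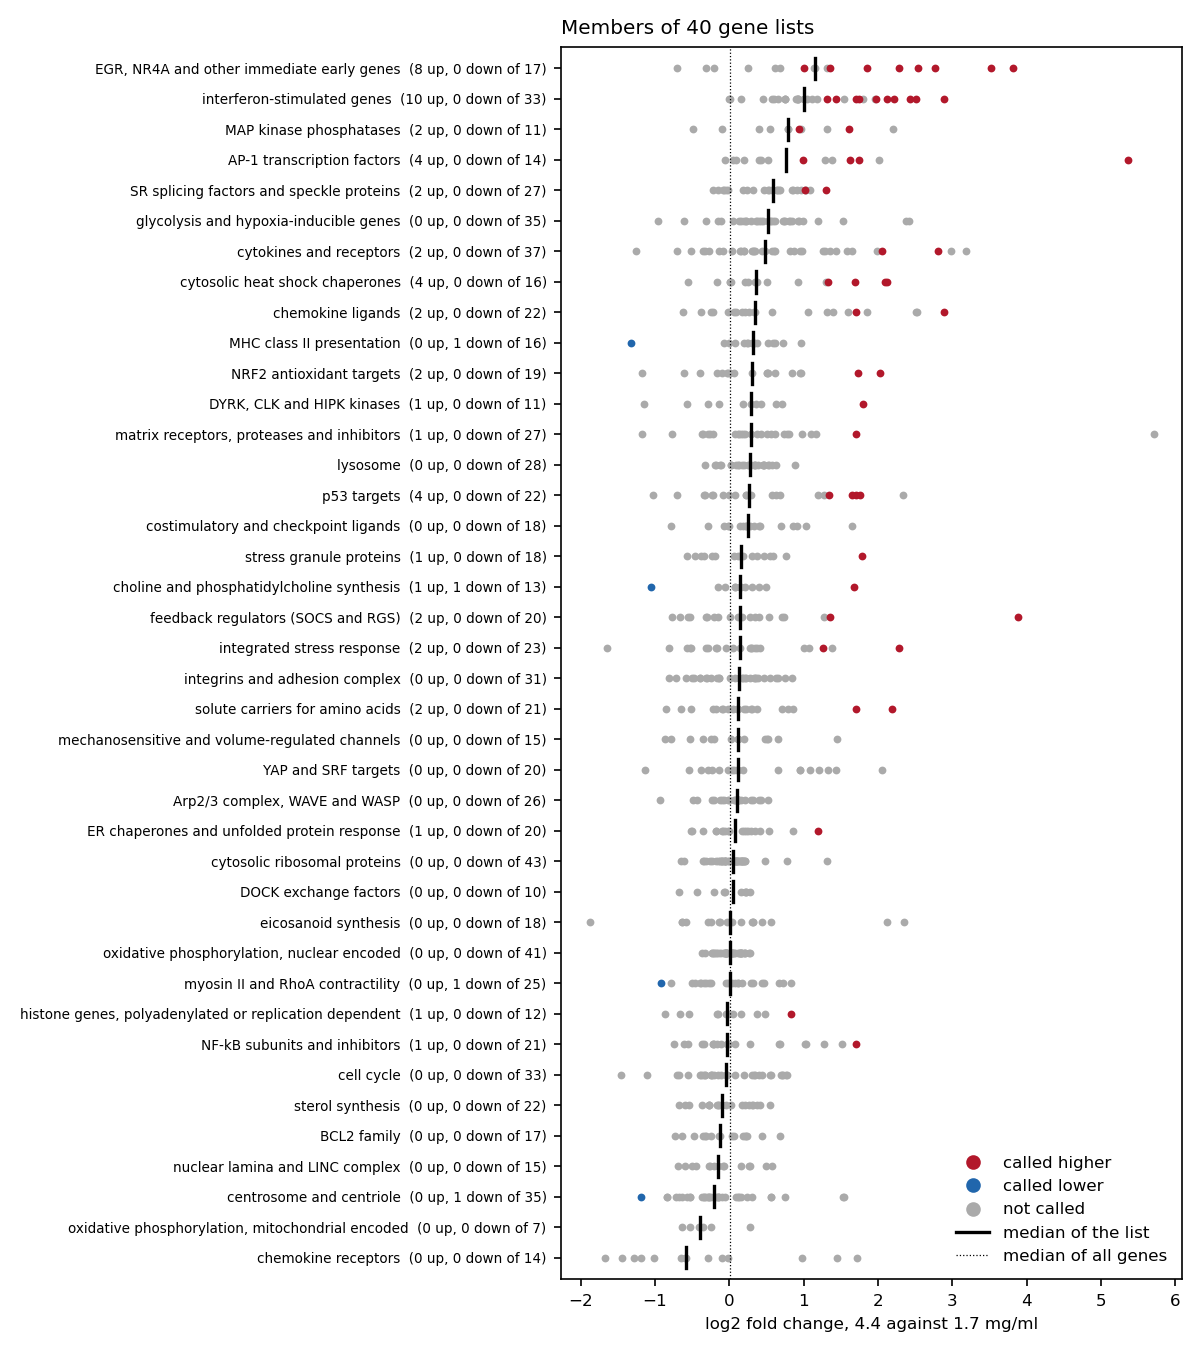
Log2 fold change between 4.4 and 1.7 mg/ml (horizontal axis) of the measured members of 40 gene lists (vertical axis, with counts of members called), 1 point per gene, red where called higher, blue where called lower, and gray where not called. Bars are list medians and the dotted line is the median of all genes tested; the immediate early and interferon-stimulated lists have the highest medians, 1.15 and 1.01.

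The largest falls and the called members of the lists are described next. Tlr9, the endosomal receptor for CpG DNA, was at 7.47, 17, and 14.6 CPM in the loose gel and at 2.89, 0.939, and 5.20 CPM in the dense gel. It was lower in each dense-gel library than in any loose-gel library, with a log2 fold change of -2.09 (SE 0.42, adjusted p = 0.0335). Its mean in the 6 suspension libraries was 39.2 CPM. Tlr12, a receptor for profilin of parasites, had a log2 fold change of -2.19 (SE 0.58, adjusted p = 0.0911), and Card6, a regulator of NF-kB, had -2.81 (SE 0.55, adjusted p = 0.0305), both at levels of at most 5.31 CPM. Ciita, the master regulator of MHC class II genes, was at 75.9, 112, and 61.2 CPM against 38.2, 35.8, and 27.7 CPM, again without overlap (log2 fold change -1.32, SE 0.33, adjusted p = 0.0762). The 15 other measured genes of MHC class II presentation were not called, 14 of the 16 had a positive log2 fold change, and the list median was 0.32. The replicates differed, with 3, 15, and 11 of the 16 positive and medians of -0.47, 0.83, and 0.44 in replicates 1, 2, and 3.

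Nbeal2, a BEACH protein of granule formation, had the lowest p-value among the named falls. It was at 50.3, 116, and 55.4 CPM in the loose gel and at 20.2, 21.5, and 14.3 CPM in the dense gel (log2 fold change -1.93, SE 0.34, adjusted p = 0.0252). Its mean in suspension was 161 CPM. Snx33, a sorting nexin that binds WASP and limits actin-driven protrusion, was at 5.08, 6.54, and 3.94 CPM against 0.993, 1.71, and 0.799 CPM (log2 fold change -2.21, SE 0.54, adjusted p = 0.0703). Calhm2, a channel protein, was at 14.2, 29.9, and 35.3 CPM against 4.92, 4.01, and 14.1 CPM (log2 fold change -1.80, SE 0.35, adjusted p = 0.0305). None of these 3 overlapped between the gels. Other falls were Aoc1 (-2.04), Zfp709 (-2.02), Amigo1 (-2.0), Oxsm (-1.87), Acss1 (-1.82), and Rad1 (-1.80), with adjusted p-values from 0.0439 to 0.0829.

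In the lists of the migration machinery 1 gene was called, and since 1.73% of all genes tested were called, nothing is read from this count. Of 25 genes of myosin II and RhoA contractility, 1 was called. It was Arhgap1, a GTPase-activating protein of Cdc42 and RhoA, at 65.3, 126, and 124 CPM in the loose gel and at 39.4, 51.6, and 72.7 CPM in the dense gel. The highest dense-gel value lay above the lowest loose-gel value, and the log2 fold change was -0.92 (SE 0.24, adjusted p = 0.088). Its promoter is printed because it holds the ETS site CCGGAAGT, in capitals, at 2 positions, starting 52 and 2 bases before the start of transcription, at chr2:91650046-91650143 on the plus strand (RefSeq, GRCm38.p6).
Arhgap1: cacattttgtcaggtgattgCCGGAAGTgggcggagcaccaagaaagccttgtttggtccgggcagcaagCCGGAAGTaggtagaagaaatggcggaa
This site was found in 1 of 118 genes that rose (0.847%), 8 of 67 genes that fell (11.9%), and 851 of all 10001 genes with a window (8.51%). ETS sites mark promoters of broadly expressed genes.

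In further lists 0 genes were called by edgeR. These were 26 genes of the Arp2/3, WAVE, and WASP complexes (median log2 fold change 0.10), 10 DOCK exchange factors (0.05), 31 integrin and adhesion genes (0.13), 15 of the nuclear lamina and LINC complex (-0.15), 15 mechanosensitive and volume-regulated channels (0.12), and 20 targets of YAP and SRF (0.11). Actb, a cytoskeletal SRF target, was at 4799, 4374, and 7667 CPM in the loose gel and at 3260, 3653, and 4458 CPM in the dense gel (log2 fold change -0.54, SE 0.32, adjusted p = 0.488). Among 14 chemokine receptors the median was the lowest of all lists, -0.59, with 3 positive members, while Ccr7, by far the highest of them, had -0.02 (SE 0.30, adjusted p = 0.989). Ribosomal proteins (43 genes, median 0.05), nuclear-encoded oxidative phosphorylation (41 genes, 0.00), sterol synthesis (22 genes, -0.09), lysosome (28 genes, 0.28), costimulatory ligands (18 genes, 0.25), the BCL2 family (17 genes, -0.12), eicosanoid synthesis (18 genes, 0.00), and mitochondrially encoded oxidative phosphorylation (7 genes, -0.39) also had 0 called. DESeq2, which called more genes in all, called 3 of the chemokine receptors, 3 of the channels, 2 of the costimulatory ligands, 2 of the eicosanoid genes, 1 of the YAP and SRF targets, and 1 of the cell cycle genes, and 0 in the other lists named here.

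Glycolytic and hypoxia-inducible genes set single libraries apart. Of 35 measured, 0 were called by edgeR and 2 by DESeq2, 30 had a positive log2 fold change, and the median was 0.52. Their summed level was 43088, 10110, and 11579 CPM in replicates 1, 2, and 3 at 1.7 mg/ml and 29200, 42393, and 11928 CPM at 4.4 mg/ml. It was thus high in both gels in replicate 1, in the dense gel alone in replicate 2, and low in both gels in replicate 3. In replicate 2, 33 of the 35 genes were higher in the dense gel with a median log2 difference of 2.01, against 11 (median -0.38) in replicate 1 and 16 (median -0.05) in replicate 3. The part of this difference in the immediate early and interferon-stimulated rises was not tested. The interferon-stimulated list had medians of 0.78, 1.72, and 0.76 in replicates 1, 2, and 3, so its rise was largest in replicate 2. The immediate early list had 1.11, 1.18, and 0.72, nearly equal in replicates 1 and 2.

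Markers of other cell types were measured because bone marrow cultures hold several lineages. Of the 16 DC markers, 0 were called, and the median log2 fold change was 0.16. Of 15 macrophage and monocyte markers, 0 were called, 15 had a positive value, and the median was 0.36. Their summed level was 9112, 4229, and 3517 CPM in the loose gel and 7659, 9661, and 3517 CPM in the dense gel. It therefore differed mainly in replicate 2, the same library in which the glycolytic genes were high. Of 14 neutrophil markers, 1 was positive (median -0.48, summed level 5136 to 7029 CPM against 3874 to 7234 CPM), and of 9 eosinophil markers, 1 was positive (median -0.50, 48.9 to 69.7 CPM against 26.2 to 170 CPM). DESeq2 called 2 macrophage and monocyte markers and 1 basophil and mast cell marker, and 0 of the other marker lists. The part of these cells in the results was not tested. Basophil and mast cell, plasmacytoid DC, B cell, T and NK cell, erythroid and megakaryocyte, and fibroblast markers had 0 called of 9, 3, 5, 2, 3, and 8, and B cell and T and NK cell markers summed to at most 14.8 and 2.73 CPM.

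The steps between neighboring densities divide the difference between the ends. No step alone had a gene past the FDR of 0.1 in edgeR, so that 0% of the genes were called from 1.7 to 2.6 mg/ml, from 2.6 to 3.5 mg/ml, and from 3.5 to 4.4 mg/ml, with 1207, 580, and 1448 genes at an unadjusted p under 0.05. DESeq2 called 0, 0, and 261 genes in these steps. The 155 genes called higher had median log2 steps of 0.62, -0.07, and 1.12. They were positive in 148, 51, and 155 of the 155, while over all genes 50.5%, 44.8%, and 51.0% were positive. The 84 genes called lower had median steps of -0.27, -0.18, and -0.82. The first and last steps share libraries with the comparison that chose the genes, and the middle step shares none. In that middle step the higher genes had no upward median, whereas the lower genes were negative in 66 of 84. The means of Chka followed this course, with log2 steps of 0.68, -0.06, and 1.06, as did those of Dyrk3, with 0.88, -0.06, and 0.97.

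**Figure D5:**
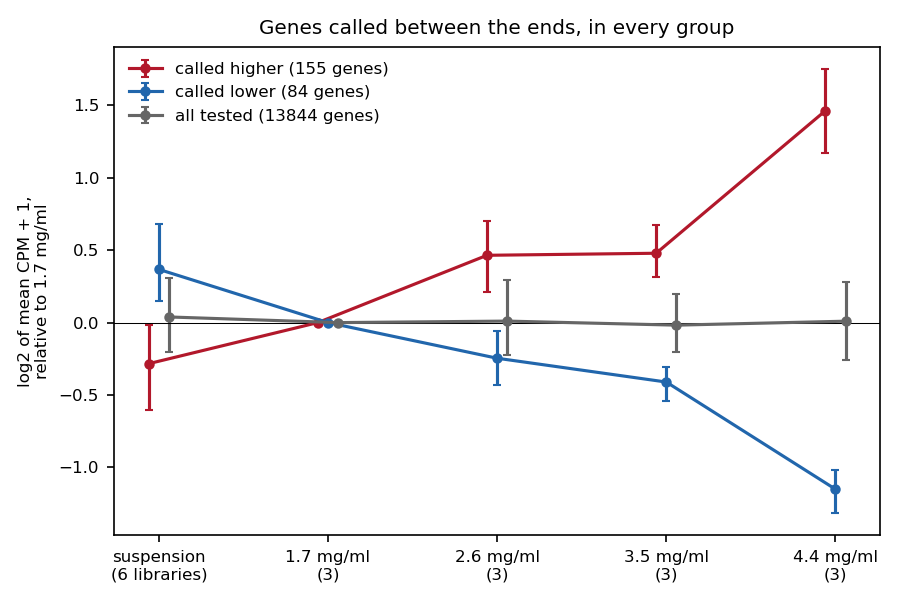
Median over genes, with quartiles as error bars, of the log2 group mean of CPM + 1 relative to 1.7 mg/ml (vertical axis) in suspension and at the 4 collagen densities (horizontal axis) for the genes called higher, called lower, and all tested. The genes called higher have medians of 0.46 and 0.48 at 2.6 and 3.5 mg/ml and 1.46 at 4.4 mg/ml, and those called lower -0.25, -0.41, and -1.15.

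The suspension libraries, which have no gel and are pooled over both CCL19 titles, lay on the far side of the loosest gel for most of these genes. The group mean over the 6 suspension libraries was below that at 1.7 mg/ml for 118 of the 155 genes called higher and above it for 71 of the 84 called lower, with median log2 differences of -0.28 and 0.37 and 0.04 over all genes tested. These differences share the loose-gel libraries with the comparison that chose the genes and are given as a description. Chka had a mean of 47.3 CPM in suspension, Dyrk3 2.06 CPM, and Akna 236 CPM.

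Sequence composition, which the rule did not use, was compared as a description. The median GC content of exons was 48.6% in the higher genes (quartiles 45.2% and 54.4%), 53.6% in the lower genes (51.3% and 56.1%), and 49.9% in all genes tested (45.1% and 54.4%). Median gene lengths were 15780, 14205, and 19556 bases, and 150 of the 155 higher and 80 of the 84 lower genes were protein coding. With offsets for GC content and exon length, 918 genes were called, 533 of them higher, and 237 of the 239 genes were among them.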

How the data were processed

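RNA was sequenced from DCs of 18 libraries, 6 of which are the subject here. Per the study's methods, stranded mRNA libraries were read as single ends on a HiSeq 2000 and aligned with STAR (version 2.7.0f in the submitters' processing notes) to GRCm38. The authors deposited raw gene counts, which are not normalized. How these counts were made, and how reads of near-identical copies were treated, is not given in the sources used here.

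Groups came from the sample titles. Of 29875 genes, 13844 passed edgeR's expression filter. Counts of all 18 libraries were scaled by TMM and fitted with edgeR's quasi-likelihood test (edgeR 4.0.16, R 4.3.3) with group and replicate as terms, two-sided, with Benjamini-Hochberg adjustment and a threshold of 0.1. The study's methods name DESeq2 with an FDR of 0.1. Here DESeq2 was run as an alternative and called 918 genes. The replicate number marks a shared date and lane in the library names. Deviations from group means correlated at 0.434 on average between same-numbered libraries (-0.149 to 0.847 over 45 pairs) and at -0.214 between others. The titles call the libraries of a group biological replicates, and the sex markers of replicate 3 differed from those of replicates 1 and 2. No source says that replicates 1 and 2 came from separate mice, so p-values measure the spread between these libraries. Of 153 library pairs, 0 were identical. The common biological coefficient of variation was 33.1% with the block and 48.9% without.

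On simulated data for this comparison, 26 of 100 genes changed 2-fold and 86 of 100 changed 4-fold were called with the block, and 5 unchanged genes. Totals per library give the depth, and a floor of 3 counts covers counting error only. DESeq2 1.42.0 and limma 3.58.1 served as alternatives. The genes named were, by rule, the protein-coding called genes of the largest rise and fall with the same sign in all replicates and a mean of at least 1 CPM, the called genes of the lowest p, up to 4 called members of each list, the most abundant member of a list without calls, and Dyrk3 and Chka; a few further members were chosen after their values were seen, as stated beside them. The comparison, the gene lists, and the named genes were chosen with earlier results of these data known. Promoter windows were read from RefSeq (GRCm38.p6), and 10001 of the tested genes had one. Some results are not reported here.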

Additional observations from a re-analysis of the deposited data

How the results depend on the processing

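The 239 genes kept their sign under every alternative in which they were tested, but they were chosen from the same libraries, so no support is drawn from this. The number called depended on the fit. DESeq2 called 918 genes (555 higher, 363 lower), offsets for GC content and length gave 918 (533 and 385), no filter on low counts gave 705 (477 and 228), an FDR of 0.05 gave 87 (67 and 20), and a fit of the 6 libraries alone gave 79 (75 and 4). Without the replicate block, 1 gene was higher and 0 were lower in edgeR, with 1061 genes at an unadjusted p under 0.05. DESeq2's size factors in edgeR, limma-voom, a stricter filter, and the 12 collagen libraries alone gave 274, 283, 293, and 195 genes. Leaving out single libraries or pairs gave 0 to 331 genes, 0 to 219 higher and 0 to 116 lower. The 0 came without replicate 2 (1262 genes at an unadjusted p under 0.05) and without the loose-gel library of replicate 3 (1496 genes). For the step from 3.5 to 4.4 mg/ml, DESeq2 called 261 genes, the GC and length offsets 5, and fits without a library or pair 0 to 339. Without a filter the 3 steps had 219, 56, and 411 calls. The cause was not tested.

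Some uncalled genes near 0 changed sign. The log2 fold change of Ccr7 became 0.0084 under DESeq2's size factors and under DESeq2, 0.0093 without the block, and 0.017 with the 12 collagen libraries. In the same order the log2 fold change of Cd83 was 0.017, 0.017, 0.0026, and 0.0098, and 0.0058 under the stricter filter. The log2 fold change of Atp5b was 0.029, 0.029, 0.015, and 0.023, then 0.019 under the stricter filter and 0.045 with the offsets. The log2 fold change of Lcn2 was 0.025, 0.025, 0.048, and 0.057, then 0.016 under the stricter filter, 0.012 with the offsets, 0.052 in limma-voom, and 0.067 with the 6 libraries. The log2 fold change of Cd74 was -0.0019 with the offsets, and the log2 fold change of Prg2 was 0.45 without the block. Without single libraries or pairs the ranges were -0.25 to 1.29 for Aldoa, -0.21 to 0.14 for Atp5b, -0.19 to 1.18 for Bst2, -0.51 to 0.11 for Ccnd2, -0.19 to 0.13 for Ccr7, -0.37 to 0.87 for Cd14, -0.25 to 0.49 for Cd74, -0.21 to 0.17 for Cd83, -0.15 to 0.44 for Ctsz, -0.39 to 0.12 for Emd, -0.011 to 0.32 for Hdc, -0.31 to 0.27 for Lcn2, -0.12 to 0.39 for Mcl1, -0.87 to 0.28 for Pf4, -0.95 to 0.52 for Prg2, -0.36 to 0.10 for Srebf2, and -0.39 to 0.50 for Trpv2.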
